A study of Homo sapiens with 6 samples.

Results

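In MOLM-13 cells, an established human acute myeloid leukaemia line, 164 genes were chosen that had more reads after C646 treatment but no more reads from newly synthesized RNA, both relative to all 3′ UTR reads of the library. C646 inhibits the acetyltransferases CBP and p300. The treated cells received 10 µM C646 and the control cells DMSO, both for 2 h, and 4-thiouridine (4sU) was present at 100 µM over the last 1 h, in 3 replicates per group. The sources do not say whether the replicates were grown as separate cultures, so the spread between them may be technical. The genes were chosen by measured values. For each library, all reads and those carrying T > C conversions, called T > C reads, were summed by gene and scaled to 1000000 reads on 3′ UTRs of the library (RPM), and the 3 libraries of a group were averaged. A gene needed at least 50 reads in every library and on average 20 T > C reads in DMSO, a C646/DMSO ratio of at least 1.7 for all reads and a ratio of at most 1.0 for T > C reads. Of 25420 genes listed, 6054 met the minimums on reads and 433 of those also had the higher ratio for all reads. The 164 members make up 37.9% of the 433 and 2.71% of the 6054. They lie at 162 distinct places. NUDT3 and the readthrough gene RPS10-NUDT3 share 1 3′ UTR and the same reads. The entry named MIR7705 is a 57-base stretch inside the 3′ UTR of PABPC1, and its reads are PABPC1 reads in a 3′ end library, not a measure of the microRNA. In all, 162 members are protein-coding, and the other two are MIR7705 and the long noncoding RNA LINC00899.

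SLAM-seq tells RNA made during labelling from RNA that was already there. Once alkylated, the incorporated 4sU pairs like a C during sequencing, which shows as a T > C conversion. A converted read is therefore taken to mark a molecule transcribed in the labelling window. Sequencing errors and variants can also give T > C reads, no unlabelled library was analysed here, and this background weighs most where few reads are converted. Most reads without conversions come from older transcripts. The level of an mRNA is set by how fast it is made and how fast it decays, and the 3′ UTR carries many of the sequences that decay factors read. AU-rich elements, built on ATTTA, are among the best known of them, and proteins that bind there can bring in the machinery that shortens the poly(A) tail. The length and T content of the 3′ UTR also matter for the assay itself, since only T positions can show a conversion.

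Sites with the longer AU-rich motif TATTTAT, which contains ATTTA, are printed for 6 members to show the sequence context that was counted in the 3′ UTRs. They come from ADCY9 (chr16:3964883-3964911, minus strand), PIEZO1 (chr16:88715344-88715372, minus strand) and IRF8 (chr16:85922520-85922548, plus strand), which are among the members with the highest ratios for all reads, from USP12 (chr13:27068596-27068624, minus strand) and TRPM7 (chr15:50561430-50561458, minus strand), which have the lowest ratios for T > C reads, and from MCL1 (chr1:150575807-150575835, minus strand), whose mRNA is known to be short-lived. Each is read from GRCh38 on the strand of the gene, 5′ to 3′, with the motif in capitals.
ADCY9: gaggttgcattTATTTATttatttattta
PIEZO1: aaaaaatgtttTATTTATacaaatggaca
IRF8: tgctgaatgaaTATTTATttttgtatcca
USP12: aattttttcctTATTTATtttacttaaaa
TRPM7: ttgataattagTATTTATaactttttaaa
MCL1: ccctctacagaTATTTATatcaattccta
The 6 sites differ around the motif. In ADCY9 the motif runs on into further ATTTA repeats, whereas in PIEZO1, whose 3′ UTR has only 267 bases, it holds the 1 match to ATTTA found there. The motif occurs in 42.7% of the members' 3′ UTRs and in 33.7% of those of the 6054 genes.

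Reads on 3′ UTRs numbered 7252597 to 9404748 per library in DMSO and 7536467 to 10225448 in C646. T > C reads made up 8.79% ± 0.0637 (SD, n = 3) of them in DMSO and 6.48% ± 0.203 (SD, n = 3) in C646. Of all filtered reads, those on 3′ UTRs made up 49.7% to 51.6% in DMSO and 56.3% to 62.0% in C646, so dividing by all filtered reads raises every ratio. In that scaling, which was chosen after seeing the data, 42 of the 164 members had a T > C ratio above 1.0, and the rule gave 293 genes, of which 122 are members. All 12 myeloid markers examined, such as CD33, SPI1 and LYZ, had at least 10 reads in every library. No B cell, erythroid, epithelial or stromal marker did. The highest of these, COL1A1, had 6 to 68 reads per library, with means of 1.51 RPM in DMSO and 6.23 RPM in C646. Of the T cell markers CD3E and CD2 had no reads, CD3D had 14 to 22 per library and CD4, which monocytic cells also carry, 1219 to 2746.

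Among the members, the median C646/DMSO ratio of all reads was 1.90, with a range of 1.7004 to 3.69, and the median ratio of T > C reads was 0.723, with a range of 0.200 to 1.00. Over the 6054 genes the medians were 0.958 and 0.525. Both ratios of the members thus lay above those of the typical gene, as 88.5% of the 6054 genes had a T > C ratio of at most 1.0. Both ranges were set by the rule, so they are descriptions, and the same holds for the calls of all reads, T > C reads and their odds below, which rest on the same 6 libraries and measures. The shares over all tested genes stand beside them, and nothing is read from the excess of members or from a count of 0 in the other direction. In 56 members all reads were at least 2 times as high in C646, while the upper quartile of this ratio over the 6054 genes was 1.21. In 24 members T > C reads were at most 0.5 times those in DMSO. The lower quartile of the T > C ratio was 0.584 among members and 0.346 over the 6054 genes, so such low ratios were less common in members. In edgeR's quasi-likelihood test of all reads (adjusted p at most 0.01 and absolute log2 fold change at least 1), 57 members were called higher and 0 lower in C646, where 5.72% of the 10851 tested genes were called higher and 2.0% lower. With 1 library left out the 57 became 33 to 93, with 33 without DMSO replicate 2, 34 without C646 replicate 3, 87 without C646 replicate 1 and 93 without DMSO replicate 3. T > C reads were called lower in 12 members and higher in 0, where 33.8% of the 7760 tested genes were called lower and 2.9% higher. The 12 became 7 without DMSO replicate 3 and 19 without C646 replicate 3, and 0 when the T > C reads were scaled by TMM on themselves. The odds of a T > C read were called lower in 146 members and higher in 0, against 38.2% and 0.786% of the tested genes. At an unadjusted p under 0.05, 0 members were lower in all reads and 0 higher in T > C reads, and DESeq2 called none either, as the rule leaves no room for such members. The direction of the T > C reads was that against reads on 3′ UTRs only, and it turned for 42 members against all filtered reads. Their median log2 fold change was −0.46 among the members and −0.84 over all genes tested, and with TMM factors taken from T > C reads alone it was 0.33 among the members, with 124 of them above 0 and, at an unadjusted p under 0.05, 31 higher and 6 lower, and −0.05 over all genes. These values too are descriptions of genes chosen on the same reads, and nothing is read from them.

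**Figure D1:**
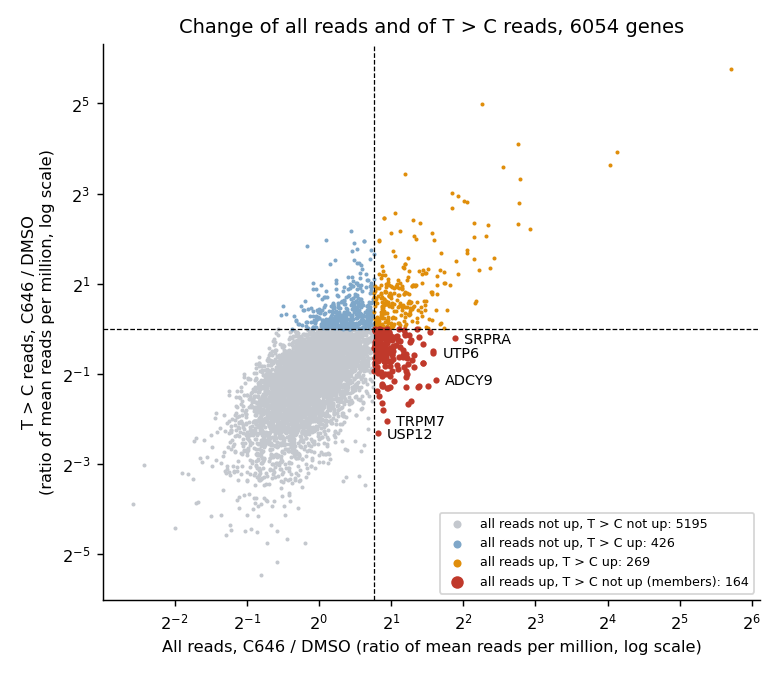
C646/DMSO ratio of all reads (x axis) against that of T > C reads (y axis), both log scales and ratios of mean RPM over 3 libraries, for the 6054 genes that meet the minimums. Dashed lines are the limits of 1.7 and 1.0, and the 164 members (red) fill the lower right field, with SRPRA farthest right at 3.69 and USP12 lowest at 0.200.

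How far a member lay from the limits has to be read against its error. The median standard error of the log2 fold change was 0.19 for all reads and 0.36 for T > C reads, and the median member had 40.5 T > C reads in a DMSO library and 31.5 in a C646 library. No member had an all-read fold change within 2 standard errors of 0, but 96 lay within 1 standard error of the limit, a log2 fold change of 0.77. For T > C reads, 65 members lay within 1 standard error of no change and 119 within 2, and 45 lay farther below. All these counts are of genes chosen for a T > C ratio of at most 1.0 and an all-read ratio of at least 1.7. They are shaped by the rule, and the same shares over all tested genes were not computed. In T > C reads, 12 of the members passed the call. Taken singly, most members had T > C reads within error of the DMSO level at this depth, and nothing is read from this about the set. Just inside the limit on all reads were IFNGR1, the interferon gamma receptor subunit, at 1.7004, C1QBP at 1.7049 and ROCK1 at 1.7073, and just outside were DESI2 at 1.6974, ZCCHC8 at 1.6952 and EED at 1.6934. Just inside the limit on T > C reads were CDK2 at 0.9997, OSTF1 at 0.9981 and CERS6 at 0.9956, and just outside were HIPK2 at 1.0011, CCZ1 at 1.0103 and NDUFB3 at 1.0133.

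SRPRA, a subunit of the receptor that docks the signal recognition particle at the endoplasmic reticulum, had the highest ratio of all reads. Its 997-base 3′ UTR (chr11:126262919-126263915, minus strand) had 28.5, 15.4 and 24.8 RPM in DMSO replicates 1 to 3 and 77.2, 69.0 and 108 RPM in C646 replicates 1 to 3, a log2 fold change of 1.89 ± 0.22 (SE). Its T > C reads stood at 5.85, 4.00 and 5.19 RPM in DMSO and at 3.32, 3.53 and 6.16 RPM in C646. All reads of SRPRA did not overlap between the groups, while its T > C reads did, with C646 replicate 3 above every DMSO library. ADCY9, an adenylyl cyclase, had 11.3, 7.17 and 11.7 RPM of all reads in DMSO and 30.8, 24.9 and 37.1 in C646. Its T > C reads were 3.51, 2.62 and 2.73 RPM in DMSO and 1.33, 1.34 and 1.37 in C646, so that the groups were apart in both measures and in opposite directions. UTP6, a factor of small ribosomal subunit assembly, went from 33.2, 23.7 and 44.6 RPM to 92.4, 101 and 112 RPM. EBPL, a protein related to the sterol isomerase EBP, stood at 32.9, 22.1 and 44.2 RPM in DMSO and at 87.8, 91.7 and 117 RPM in C646. All 4 genes were called higher in all reads, and none of them was called lower in T > C reads.

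The next ratios of all reads belonged to PREX1, a guanine nucleotide exchange factor for RAC, at 2.91, LIX1L at 2.85, NUDT3, a diphosphoinositol polyphosphate phosphatase, at 2.71 with RPS10-NUDT3 on the same reads, the MIR7705 entry inside PABPC1, also at 2.71, and SSB, the La protein that binds the ends of RNA polymerase III transcripts, at 2.62. The mechanically gated channel PIEZO1 followed with 31.9, 29.9 and 54.0 RPM in DMSO and 83.99, 104 and 114 RPM in C646. IRF8, a transcription factor of the monocyte and dendritic cell lineage, was the only member among the myeloid and leukaemia genes listed. It had 93.4, 51.8 and 124 RPM of all reads in DMSO and 215, 218 and 263 RPM in C646, a log2 fold change of 1.38 ± 0.23 (SE). Its T > C reads fell from 27.4, 16.1 and 34.3 RPM to 9.29, 8.65 and 14.0 RPM, a log2 fold change of −1.27 ± 0.24 (SE). IRF8 was thus called in both measures, higher in all reads and lower in T > C reads, and in neither did the groups overlap. Both calls held with any 1 library left out. CDK2, the kinase of the G1 to S transition, is at the other end of the set. Its all reads rose from 52.3, 59.3 and 76.8 RPM to 115, 166 and 202 RPM, and its T > C reads, at 5.10, 6.20 and 9.69 RPM in DMSO and 4.91, 8.65 and 7.43 RPM in C646, overlapped.

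**Figure D2:**
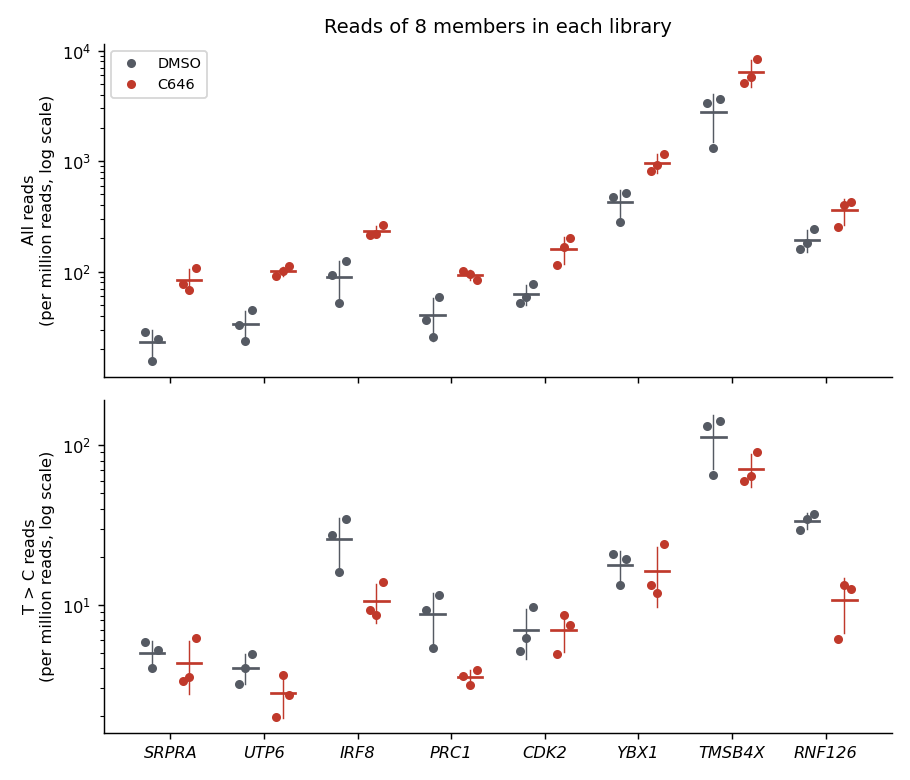
All reads (top) and T > C reads (bottom) of 8 members in each library, in RPM on log axes. Points are the 3 libraries of a group in order of replicate number, horizontal bars the mean and vertical lines 1 SD. In the upper panel every C646 library lies above every DMSO library for all 8 genes, and in the lower panel the groups are apart for IRF8, PRC1 and RNF126, with fewer T > C reads in C646.

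The lowest ratios of T > C reads were found for USP12, a deubiquitinase, TRPM7, a cation channel fused to a kinase, YEATS2, a chromatin reader, PDCD2L, RNF126, a ubiquitin ligase, and HDHD5. USP12 had 6.49, 3.17 and 5.87 RPM of T > C reads in DMSO and 0.133, 1.71 and 1.27 RPM in C646. These values rest on 61, 23 and 43 reads in DMSO and on 1, 14 and 13 reads in C646, and the low value of C646 replicate 1 is a single read. TRPM7 stood at 5.74, 4.41 and 6.96 RPM in DMSO and at 0.398, 1.71 and 2.05 RPM in C646. RNF126 is better covered, and its T > C reads fell from 29.5, 34.3 and 37.0 RPM to 6.10, 13.4 and 12.6 RPM, a log2 fold change of −1.63 ± 0.23 (SE). Its all reads were 161, 181 and 243 RPM in DMSO and 252, 398 and 426 RPM in C646, which did not reach the call. Besides USP12, TRPM7, YEATS2, PDCD2L, RNF126 and IRF8, the T > C reads were called lower for PRC1, which bundles microtubules in the dividing cell, SUSD6, WDR90, the arginine methyltransferase PRMT1, the protease CTSC and MTA1 of the NuRD complex. PRC1 went from 9.25, 5.38 and 11.6 RPM to 3.58, 3.17 and 3.91 RPM in T > C reads and from 36.5, 25.9 and 59.0 RPM to 102, 94.7 and 83.6 RPM in all reads, and both changes were called. The call for all reads was lost without DMSO replicate 2, at a log2 fold change of 0.99, or without DMSO replicate 1, at 1.14. That for T > C reads was lost without DMSO replicate 3, at −1.04. In the last 2 cases only the adjusted p missed its limit. With 1 library left out the T > C calls of YEATS2, PDCD2L, SUSD6, WDR90, PRMT1 and MTA1 were lost at least once, and those of USP12, TRPM7, RNF126, IRF8 and CTSC were not. In most of these losses the log2 fold change stayed past the limit and only the adjusted p missed. The exceptions were WDR90 without C646 replicate 1, at −0.94, and PRMT1 without DMSO replicate 2, at −0.90.

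The most abundant members were RPS29, PABPC1, TMSB4X, RPL27 and YBX1, next to the MIR7705 entry inside PABPC1. TMSB4X, the actin monomer binding thymosin β4, had 3329.9, 1303 and 3638 RPM of all reads in DMSO and 5058, 5756 and 8373 RPM in C646, and was called higher. This call was lost without DMSO replicate 2, at a log2 fold change of 0.89, or without C646 replicate 3, at 0.97. The call was also lost without DMSO replicate 1, at 1.38, or C646 replicate 2, at 1.30, where only the adjusted p missed its limit. Its T > C reads were 131, 65.2 and 141 RPM in DMSO and 59.6, 63.8 and 90.6 RPM in C646, and DMSO replicate 2, lowest in both measures, lay inside the C646 range for T > C reads. PABPC1, the cytoplasmic poly(A) binding protein, stood at 2703, 2936 and 2949.8 RPM in DMSO and at 4495, 5258 and 6029.6 RPM in C646. Its T > C reads were 108, 93.9 and 103 RPM in DMSO and 57.5, 65.7 and 72.9 RPM in C646, with no overlap, but neither measure reached the call. The ribosomal protein genes RPS29 and RPL27 had T > C ratios of 0.992 each, and log2 fold changes of −0.01 ± 0.16 and 0.00 ± 0.20 (SE). Both had all-read ratios of 1.79 and 1.92. YBX1, a cold shock domain protein that binds mRNA, had an all-read ratio of 2.29, but 61.3% of its reads map to more than 1 place, and its level is uncertain for that reason. The same holds for LSM12 at 95.4%, and no other member exceeded 20%.

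Every C646 library lay above every DMSO library for all reads in 160 members, where 23.0% of the 6054 genes did so. A ratio of at least 1.7 over these same libraries chose the members, so this count follows largely from the rule. The exceptions were PIP4K2C, SLC45A3, APEX1 and STIL. APEX1, a base excision repair endonuclease, had 198, 49.1 and 127 RPM in DMSO and 195, 196 and 288 RPM in C646, with DMSO replicate 2 far below the others. For T > C reads every C646 library lay below every DMSO library in 49 members, where 63.9% of the 6054 genes did so, and this measure too was used by the rule. The libraries were not alike in the members. DMSO replicate 2 was the lowest DMSO library in all reads of 127 members (77.4%, against 42.1% of the 6054 genes), and C646 replicate 3 was the highest C646 library in 140 members (85.4%, against 34.3%). In sum, the members held 1.83%, 1.41% and 2.15% of the reads in DMSO replicates 1 to 3 and 3.04%, 3.50% and 4.20% in C646 replicates 1 to 3. Without DMSO replicate 2 the rule gave 138 genes, of which 98 are members, and without C646 replicate 3 it gave 148 genes, of which 120 are members. Leaving out both, which was chosen after seeing the data, gave 100 genes, of which 57 are members. The part of these libraries in the result was not tested.

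The T > C share, the part of a gene's reads that carry conversions, was higher in the median member than in the median of the 6054 genes in DMSO. Its median over members was 16.6%, 18.0% and 16.2% in DMSO replicates 1 to 3 and 5.76%, 5.53% and 5.54% in C646 replicates 1 to 3. Over the 6054 genes it was 12.7%, 12.7% and 12.3% in DMSO and 6.29%, 6.39% and 6.89% in C646. The members were above the typical gene in DMSO and below it in C646, in every library of each group. The share is made of the measures that the rule used, and the minimum of 20 T > C reads, set in DMSO only, asks for a higher share of less abundant genes. The members had a median of 31.02 RPM of all reads in DMSO, like the 269 genes (31.02 RPM) with an all-read ratio of at least 1.7 and a T > C ratio above 1.0, whereas the 6054 genes had 57.8 RPM. These 269 genes had a higher share still, with a median of 21.1% in DMSO, against 16.8% in the members, and 15.5% in C646, against 5.94%. The high share in DMSO is therefore not particular to the members. A lower share in C646 follows from the rule, and all 164 members had one, as did 94.5% of the 6054 genes. In 158 members every C646 library was below every DMSO library, where 71.6% of the 6054 genes were. The share in DMSO ranged widely among members. It was highest for PPM1D, a phosphatase of the p53 response, at 75.6%, 67.6% and 75.5% in DMSO, followed by KANSL2, a subunit of an acetyltransferase complex, and TET2, which oxidises 5-methylcytosine. KANSL2 had shares of 69.8%, 74.0% and 69.7% in DMSO and of 14.5%, 18.1% and 13.8% in C646, whereas PPM1D kept 32.4%, 39.4% and 44.3% in C646. At the low end, RPL27 had 2.53%, 3.24% and 2.05% in DMSO and RPS29 had 2.80%, 2.83% and 2.41%, so the set joins mRNAs with large and small T > C shares, and a background of T > C reads was not subtracted.

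**Figure D3:**
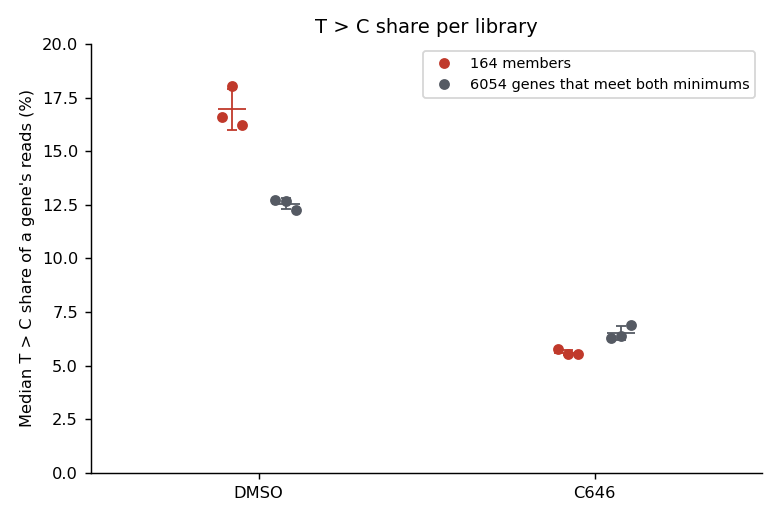
Median T > C share of a gene's reads (y axis, percent, from 0) in each library of the DMSO and C646 groups, for the 164 members (red) and the 6054 genes that meet the minimums (grey). Points are libraries, bars mean and SD (n = 3), and the members lie above the other genes in DMSO (16.2% to 18.0%) and below them in C646 (5.53% to 5.76%).

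Reads without conversions, which stand for older RNA, were 2.19 times as high in C646 in the median member, with a lowest ratio of 1.76, and 1.04 times as high in the median of the 6054 genes. In the 269 genes with both measures up the median was 2.34, so the rise was no larger in the members. This ratio is made of the same measures as the rule. Conversions were also counted per T position inside the 3′ UTRs, and their sum divided by the number of T > C reads was lower in C646. In the median member this quotient was 2.40, 2.33 and 2.30 in DMSO replicates 1 to 3 and 1.82, 1.79 and 1.97 in C646 replicates 1 to 3. It can lie below 1, as for the MIR7705 entry with 0.971 in DMSO, and so is not the number of conversions that a T > C read holds. A lower quotient in C646 was seen in 143 members (87.2%) and in 79.7% of the 6054 genes. Per covered T position, 1.08%, 1.28% and 1.04% were converted in the median member in DMSO and 0.265%, 0.252% and 0.297% in C646, against 0.856%, 0.875% and 0.811% in DMSO and 0.354%, 0.360% and 0.385% in C646 over the 6054 genes. The mean over DMSO libraries had a median of 1.11% in the members and of 1.32% in the 269 genes.

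What the members encode is spread over many kinds of protein. The roles below were assigned after the values had been seen, and 24 members were left without one. Transcription and chromatin was the largest group with 26 members, among them IRF8, TET2, the retinoic acid receptor RARA, the elongation factors CDC73, LEO1 and TCEA1, CDK8 and MED13L of the Mediator kinase module, and the coactivator NCOA3. Their all-read ratios ran from 1.71 to 2.59 with a median of 1.87. Signalling held 19 members, with ADCY9, PREX1, the phosphoinositide kinases PIP4K2C and PIP5K1A, the urokinase receptor PLAUR and the GTPase RAP2A. A further 16 act in ubiquitin conjugation and proteolysis, where COP1, ARIH1, RNF126, RNF166, MKRN2 and FBXL12 belong to ubiquitin ligases and USP12 and STAMBP remove ubiquitin.

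The 14 members of the cell cycle and DNA repair group include CDK2, SKP2, PRC1, NUF2, NCAPD2, UBE2T and APEX1, with all-read ratios from 1.73 to 2.57. The 13 members of the ribosome and translation group range from RPS29 and RPL27 over the mitochondrial ribosomal proteins MRPL16, MRPL32 and MRPL33 to the assembly factors UTP6, ESF1, LTV1 and PUM3, and their 3′ UTRs were short, with a median of 212 bases. Among 12 RNA binding and processing members, SSB was highest, and CNOT8, a deadenylase of the CCR4-NOT complex, and PATL1, a decapping factor, act in mRNA decay. CNOT8 had 36.3, 38.7 and 45.2 RPM of all reads in DMSO and 64.6, 73.1 and 83.3 RPM in C646, which do not overlap. PATL1 had 28.7, 14.3 and 49.7 RPM in DMSO and 52.3, 56.2 and 56.2 RPM in C646, and its DMSO libraries differed from each other by more than its groups did. The secretory pathway gave 12 members, such as SRPRA, SRP9, PDIA4, ERP44, GANAB and ARCN1, metabolism and mitochondria 11, channels and transporters 10 and the nuclear pore 3, namely NUP54, NUP188 and TPR. MCL1, the BCL2 family survival protein, had 121, 117 and 129 RPM of all reads in DMSO and 193, 218 and 232 RPM in C646, while its T > C reads, at 34.3, 31.6 and 35.9 RPM in DMSO and 25.3, 33.0 and 36.0 RPM in C646, overlapped.

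Lists of gene families held few members each, from 0% to 6.67% of their eligible genes, against 2.71% over all eligible genes. Solute carriers had 6 of 93 eligible genes in the set (6.45%), mitochondrial ribosomal proteins 3 of 66 (4.55%), ubiquitin ligase families 3 of 81 (3.70%) and cytosolic ribosomal proteins 2 of 69 (2.90%). The SR splicing factors and CLK kinases had SRSF4 and SRSF9 among 30, the mRNA decay list had CNOT8 and PATL1 among 60, and the list of oxidative phosphorylation genes had SDHB and ATP5PD among 78. C2H2 zinc finger proteins had only ZNF277 among 161. The chaperone list had 0 members among 43 eligible genes and the NRF2 target list 0 among 18, although 17 and 6 of these had all-read ratios of at least 1.7. Of 54 chaperone genes tested in all reads 21 were called higher, and of 53 tested in T > C reads 29 were called higher and 3 lower. In the solute carriers 13 of 175 were called higher in all reads, and in T > C reads 6 of 121 were called higher and 46 lower. Over all tested genes 5.72% were called higher in all reads, and 2.9% higher and 33.8% lower in T > C reads, and the solute carriers lie near these shares.

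In length, the members' 3′ UTRs did not stand out. The median was 1298 bases, with quartiles of 501 and 2324, against 1308.5 bases, with quartiles of 537 and 2564, over the 6054 genes. The shortest had 34 bases, in RPL27. When the 6054 genes were put into 5 equal classes of length, 36, 25, 45, 27 and 31 members fell into them from the shortest to the longest, without an order. The T fraction was higher. Its median was 33.3% among members and 30.7% over the 6054 genes, and the classes from the lowest to the highest T fraction held 15, 20, 31, 47 and 51 members. RNF126 had the lowest T fraction, 18.1%, and UBE2T, a ubiquitin conjugating enzyme of the Fanconi pathway, the highest, 45.5%. GC content had a median of 37.3% among members and 41.2% over the 6054 genes.

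This composition was shared with the 269 genes with both measures up. Their 3′ UTRs had a median T fraction of 33.0%, a GC content of 36.2% and a length of 1261 bases, whereas the 5195 genes below both limits had 30.3%, 42.0% and 1313 bases. Within the 433 genes with the higher all-read ratio, members made up 44.1%, 32.3%, 33.3%, 44.3% and 37.0% of the T fraction classes from lowest to highest with no order. Motifs were searched on the strand of the gene only. ATTTA was found in 85.4% of members, in 82.2% of the 269 genes and in 74.4% of the 6054, and TATTTAT in 42.7%, 42.0% and 33.7%. The Pumilio motif TGTANATA was found in 33.5% of members, in 34.2% of the 269 genes and in 30.0% of the 6054. A poly(A) signal, either the canonical AATAAA or its common variant ATTAAA, lay in the last 50 bases of the 3′ UTR in 89.6% of members, in 84.4% of the 269 genes and in 82.0% of the 6054. All these motifs consist mostly of A and T, and the shares are not adjusted for base composition. Ratios centred by GC content, which was chosen after seeing the data, gave 142 genes under the same rule, of which 97 are members.

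**Figure D4:**
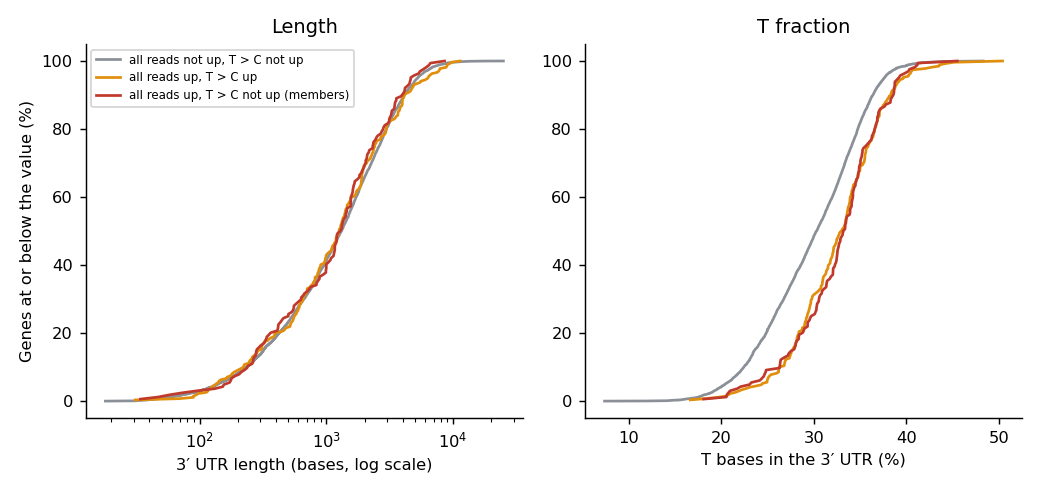
Cumulative share of genes (y axis, percent) by 3′ UTR length (left, bases, log scale) and T fraction (right, percent), for the members (red), the 269 genes with both measures up (orange) and the 5195 genes with neither up (grey). The 3 lines run together for length, while for T fraction the members and the 269 genes run to the right of the 5195 genes (medians of 33.3%, 33.0% and 30.3%).

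The rule set no limit on the number of T positions covered per read, but this measure is divided by the reads that the rule used. It comes from the same libraries and was higher in C646 in 132 members (80.5%) and in 57.8% of the 6054 genes. Every C646 library lay above every DMSO library in 51 members (31.1%), where 8.97% of the 6054 genes did so, and below in 4 members, against 5.96%. In BCCIP, a BRCA2 interacting protein, a read covered 27.3, 22.4 and 27.3 T positions in DMSO and 33.8, 34.8 and 36.6 in C646. YBX1 had 32.6, 28.3 and 31.0 in DMSO and 36.4, 38.6 and 43.0 in C646, and PDIA4, a protein disulphide isomerase, had 39.0, 27.0 and 37.6 in DMSO and 41.3, 41.6 and 45.2 in C646. In all 3 genes the groups did not overlap, and DMSO replicate 2 was the lowest library. Most reads of YBX1 map to several places, so its values are uncertain. BCCIP was named for this difference after the values had been seen. The difference between the group means had a median of 1.24 T positions among the members, of 0.808 among the 269 genes with both measures up and of 0.136 among the 5195 genes below both limits. The size of this difference rests in good part on DMSO replicate 2. Without that library the median was 0.571 among the members, 0.300 among the 269 genes and −0.21 over the 6054 genes, with 122 members and 42.1% of the 6054 genes higher in C646. Without both DMSO replicate 2 and C646 replicate 3 it was 0.257 among the members and −0.33 over the 6054 genes, with 105 members (64.0%) and 36.0% of the 6054 genes higher. Both settings were chosen after seeing the data. With all libraries, it exceeded 3 T positions in 29 members (17.7%), in 10.8% of the 269 genes and in 3.45% of the 5195 genes. The median over members in each library was 36.2, 33.8 and 36.0 in DMSO and 36.2, 36.1 and 37.2 in C646, so DMSO replicate 2 was also low here, as it was over the 6054 genes (30.3, against 31.7 and 32.5). Which stretch of the 3′ UTR the reads came from was not analysed here.

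As a further description, the rule was applied to 2 libraries per group and the chosen genes were read in the libraries left out. Leaving out replicate 1, 2 or 3 of both groups gave 167, 144 and 189 genes. In the libraries left out, their all-read ratios had medians of 1.604, 2.38 and 1.81, against 0.971, 0.982 and 0.940 over all eligible genes, and 95.8%, 98.6% and 97.9% of the chosen genes had a ratio above 1, against 45.9%, 48.3% and 43.4% of all eligible genes. A ratio of at least 1.7 was seen again in 66 of the 167, 124 of the 144 and 111 of the 189 chosen genes. Each left-out ratio compares 1 DMSO with 1 C646 library, the genes move together within a library, and the highest median belongs to the pair that holds DMSO replicate 2, the low library above, and the pair of replicate 3 holds the high C646 library. The T > C ratios had medians of 0.568, 0.854 and 0.808, against 0.507, 0.530 and 0.544 over all eligible genes. A T > C ratio of at most 1.0 was seen in 88.6%, 66.7% and 66.7% of the chosen genes, close to or below the 86.6%, 82.9% and 82.5% of all eligible genes. Both parts of the rule were met again by 31.7%, 54.2% and 36.5% of the chosen genes, against 2.22%, 5.47% and 2.68% of all eligible genes. The eligible genes here are those that met the minimums in the libraries used, so they are not the same 6054 genes as above. These values describe 3 pairs of libraries matched by number only, and are neither a test nor an independent repeat.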

How the data were processed

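SLAM-seq of MOLM-13 cells was analysed in 6 libraries, 3 per group. With SLAM-Dunk (version 0.4.1) and the GRCh38 genome, the authors made and deposited, for each 3′ UTR and library, raw counts of all reads, T > C reads, conversions and multimapped reads, and a signal, the coverage summed over T positions. Deposited CPM values, scaled by the authors' software to filtered reads, served to compute filtered totals. The authors also deposited a fraction, conversions divided by T coverage, which was recomputed here from its parts. T > C reads were used as deposited. The tables do not state how many conversions a read needs to be counted as one, and the paper's tests used reads with at least 2, so the values here may cover other reads than those tests. The number of T bases per 3′ UTR, which gives the T fraction, is listed as 0 in 1 of the tables and was taken from the others. It matched GRCh38 for all 6054 eligible genes.

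Counts were summed by gene. edgeR 4.0.16 in R 4.3.3 (quasi-likelihood test, filterByExpr, Benjamini-Hochberg adjustment) was fitted to all genes, with TMM-scaled totals of all reads as library sizes, or with a library factor for the odds of a T > C read. Depth was 7252597 to 10225448 reads per library. A gene's precision depends on its read counts and on the spread between libraries, which for abundant members such as TMSB4X exceeds counting error. Copies made by PCR are counted like other reads, so shares and errors cover counting and the spread between libraries only. On simulated data, 194, 187 and 160 of 200 changed genes were recovered for all reads, T > C reads and odds. Recovery at the members' own median log2 fold changes, 0.93 for all reads and −0.46 for T > C reads, was not tested. Features of a gene are those of its 3′ UTR with the most reads, and 162 members overlap UTRs and 2 exons of GENCODE. Symbols matched 25310 of 25420 identifiers. Summaries used Python 3.11.15.

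The members and the gene lists were chosen with earlier results of these data known. Named genes are the 12 members with the highest all-read ratio, the 6 with the lowest T > C ratio, the 6 most abundant, the 3 genes on either side of each limit, and up to 4 per gene list. Other members were named after their values were seen, and a result for 1 further gene is not reported here. Alternatives were other scalings, filters and limits, DESeq2 1.42.0, single 3′ UTRs, a replicate block and each library left out.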

Additional observations from a re-analysis of the deposited data

How the results depend on the processing

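TMM totals gave 164 genes, of which 163 are members, DESeq2 size factors 164, of which 159 are members, and scaling by all filtered reads, added after seeing the data, 293, of which 122 are members. Using 1 3′ UTR per gene, that with most reads, gave 162. Other limits gave 56 genes at a minimum of 50 T > C reads, 56 at an all-read ratio of at least 2 and 109 at a T > C ratio of at most 0.8. Leaving out DMSO replicate 2 with C646 replicate 3, also added after seeing the data, gave 100. With 1 library left out the rule gave 138 to 199 genes. The 57 members called higher in all reads became 33 to 93, with 33 without DMSO replicate 2, 34 without C646 replicate 3, 87 without C646 replicate 1 and 93 without DMSO replicate 3. The 12 called lower in T > C reads became 7 to 19, with 7 without DMSO replicate 3 and 19 without C646 replicate 3, and 0 when T > C reads were scaled by TMM on themselves, which sets the typical gene near no change (at an unadjusted p under 0.05, 6 lower and 31 higher), and 9 with DESeq2. The odds of a T > C read, called lower in 146, were called lower in 118 to 143 with a library left out and in 43 of the 49 members that averaged at least 50 T > C reads. With a replicate block 59, 12 and 143 members were called, while same-numbered libraries had correlated deviations of −0.0013 to 0.23 in all reads and of −0.012 to 0.0094 in T > C reads, so the numbers were not taken as pairs. The median ratio of reads without conversions was 2.04 to 2.42, and the median change in conversions on T positions divided by T > C reads −0.47 to −0.37, with a library left out. In DMSO, conversions per covered T had a median of 1.11% in place of a T > C share of 16.8%. For other choices of 3′ UTR the median length was 1298 to 1318 bases and the median T fraction 33.3%. As 139 of the 164 members have a single 3′ UTR listed, these medians could hardly change. The median difference in T positions per read, 1.24, was 0.571 to 1.698 with a library left out and 0.257 without DMSO replicate 2 and C646 replicate 3, both added after seeing the data. The causes of these changes were not tested.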
